A study of Mus musculus with 4 samples.

Results

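The smooth muscle contractile genes described here are 10 genes, Acta1, Acta2, Actg2, Tagln, Cnn1, Cnn2, Myl9, Tpm1, Tpm2 and Fhl2, and each was found once by its symbol among the 32285 genes of the deposited count matrix. They were measured by droplet single-cell RNA-seq (10x Chromium 3' v3) in mouse embryonic stem cells (mESCs), cells grown from the early embryo that can form all embryonic tissues. The labels list 4 samples in 2 groups: 2 replicates of wild-type (WT) E14tg2a.4, a male line, and 2 of its derivative with a gene-trap truncation of 1 Srrm2 copy (Srrm2 hKO, line CG0630, which is 1 trapped clone). Srrm2 encodes a large splicing-associated scaffold protein of nuclear speckles. Both lines were kept with LIF on gelatin and moved before collection to ESGRO, a serum-free medium, again with LIF. The labels give this step as either 24 h or 72 h and do not assign a length to single samples, while the methods of the study give another length, between these, for the single-cell cultures. Cells of the 4 libraries were deposited in 1 pooled matrix, in which a barcode suffix numbers the library from 1 to 4. No label or file used here ties a library number to a sample, so libraries are named by number, WT and Srrm2 hKO cannot be told apart, and no difference between the genotypes was tested.

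In smooth muscle, bundles of actin filaments slide past myosin, and the force is set by proteins that sit on the filaments. Acta2 and Actg2 are the vascular and the enteric smooth muscle actins, and Acta1 is the skeletal muscle actin. Calponins (Cnn1, Cnn2) and transgelin (Tagln) bind actin filaments, tropomyosins (Tpm1, Tpm2) wind along them, Myl9 is the regulatory light chain of non-striated myosin, and Fhl2 is a LIM-domain adaptor that moves between focal adhesions and the nucleus. Many such genes are targets of serum response factor (SRF), which binds the CArG box and is driven by myocardin (Myocd) or by the actin-sensing cofactors Mrtfa and Mrtfb. Several of them are also used outside muscle, in stress fibres of spreading or contractile cells, so that their expression alone does not name a cell type.

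Promoter windows show how some of these genes carry the SRF element close to the start site. RefSeq windows (GRCm38.p6) of 250 bases before to 50 after a start were found for 8 of the 10 genes, Actg2 and Tagln having no entry in the table used. A full CArG box, searched on both strands, lay in a window of 4 of the 8 genes, beside 1.81% of the 27025 genes in the whole table. Counted per window it lay in 5 of the 9 windows of these genes, beside 1.63% of 32851 windows. TATAAA, also searched on both strands, lay in a window of 2 of the 8 (Acta1 and Fhl2), beside 15.7% of all genes. The windows with a CArG box are shown in lower case on the gene's own strand, with each CArG box and TATAAA in capitals. They are Acta1 (chr8:123894726-123895025, minus strand), Cnn2 (chr10:79988350-79988649, plus strand), Myl9 (chr2:156775214-156775513, plus strand) and the 2 start sites of Fhl2 (chr1:43196712-43197011 and chr1:43163912-43164211, minus strand).
Acta1: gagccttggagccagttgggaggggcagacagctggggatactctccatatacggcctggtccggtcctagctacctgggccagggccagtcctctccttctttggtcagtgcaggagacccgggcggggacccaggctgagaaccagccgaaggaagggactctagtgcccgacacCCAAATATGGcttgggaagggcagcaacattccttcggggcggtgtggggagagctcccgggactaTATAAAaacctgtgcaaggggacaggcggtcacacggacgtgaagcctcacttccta
Cnn2: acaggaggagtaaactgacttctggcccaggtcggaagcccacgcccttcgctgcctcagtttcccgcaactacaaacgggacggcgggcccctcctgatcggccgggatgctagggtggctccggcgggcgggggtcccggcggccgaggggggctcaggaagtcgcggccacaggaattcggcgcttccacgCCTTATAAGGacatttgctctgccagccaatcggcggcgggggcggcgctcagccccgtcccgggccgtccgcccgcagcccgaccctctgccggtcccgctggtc
Myl9: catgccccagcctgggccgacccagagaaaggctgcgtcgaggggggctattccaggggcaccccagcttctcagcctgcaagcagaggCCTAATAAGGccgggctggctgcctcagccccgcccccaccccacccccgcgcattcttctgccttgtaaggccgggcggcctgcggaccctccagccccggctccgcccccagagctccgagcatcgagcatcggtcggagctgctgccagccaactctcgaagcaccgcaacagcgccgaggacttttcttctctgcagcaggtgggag
Fhl2, upstream start: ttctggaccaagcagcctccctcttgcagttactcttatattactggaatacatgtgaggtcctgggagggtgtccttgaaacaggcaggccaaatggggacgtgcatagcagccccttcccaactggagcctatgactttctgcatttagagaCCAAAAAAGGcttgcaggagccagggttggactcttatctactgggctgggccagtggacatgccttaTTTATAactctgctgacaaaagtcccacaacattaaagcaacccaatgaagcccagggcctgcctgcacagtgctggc
Fhl2, downstream start: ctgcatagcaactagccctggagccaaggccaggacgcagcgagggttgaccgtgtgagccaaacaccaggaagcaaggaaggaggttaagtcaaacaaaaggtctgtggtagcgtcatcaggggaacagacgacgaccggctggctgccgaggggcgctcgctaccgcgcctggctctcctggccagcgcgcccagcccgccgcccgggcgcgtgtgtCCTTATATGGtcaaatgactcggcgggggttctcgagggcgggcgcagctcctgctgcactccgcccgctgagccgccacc
The CArG boxes began 73 bases before the start in Acta1, 56 in Cnn2, 161 in Myl9, and 96 and 31 at the upstream and downstream starts of Fhl2. TATAAA lies on the opposite strand at the upstream start of Fhl2 and so reads TTTATA there. The box of Cnn2 read CCTTATAAGG and that of Acta1 CCAAATATGG. A match is a description of the letters, and a window without one says nothing of the factor.

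A filter on UMIs (unique molecules counted), genes and mitochondrial share, rebuilt from the methods of the study, kept 31989 of 41142 barcodes, somewhat more than the study states, 7464 to 8514 a library, with 166839268 to 200180473 UMIs a library. Levels are UMIs of the gene per 1000000 UMIs (CPM) summed over the cells of a library, with exact Poisson 95% intervals, and 3' UMI counts do not grow with transcript length. Each library is 1 sample, so intervals here cover counting error only. Among kept cells 105 barcode sequences occurred in more than 1 library. Srrm2 was at 387, 533, 238 and 356 CPM in libraries 1 to 4. Keratin-high cells, set apart throughout, are those with at least 5 UMIs of Krt8 and Krt18, the keratin pair of simple epithelia. They numbered 116, 111, 852 and 708, or 1.43%, 1.30%, 10.8% and 9.49% of kept cells, and they were deeper than other cells (median 26480.5 to 30269 against 18317 to 21837 UMIs). Their median mitochondrial share was 3.002% to 3.69%, against 3.58% to 5.42% in the other cells, and the part of depth and RNA quality in the levels was not tested.

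The 10 genes together were at 240, 297, 1183 and 658 CPM in libraries 1 to 4, with 95% intervals of 237 to 242, 295 to 300, 1178 to 1188 and 654 to 661. Library 3 was thus 4.94-fold above library 1, and no intervals overlapped. Without library 3 the highest library, library 4, was 2.74-fold above library 1. Of the 9 genes with at least 200 UMIs over the libraries, all 9 differed by at least 2-fold between their highest and lowest library. Across all 14525 genes that passed the same minimum, 27.9% did. The median highest-over-lowest fold of these 9 genes was 19.9, against 1.52 over all genes that passed, and it was 5.46 without library 1, 6.00 without library 3 and 9.08 without library 4.

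**Figure D1:**
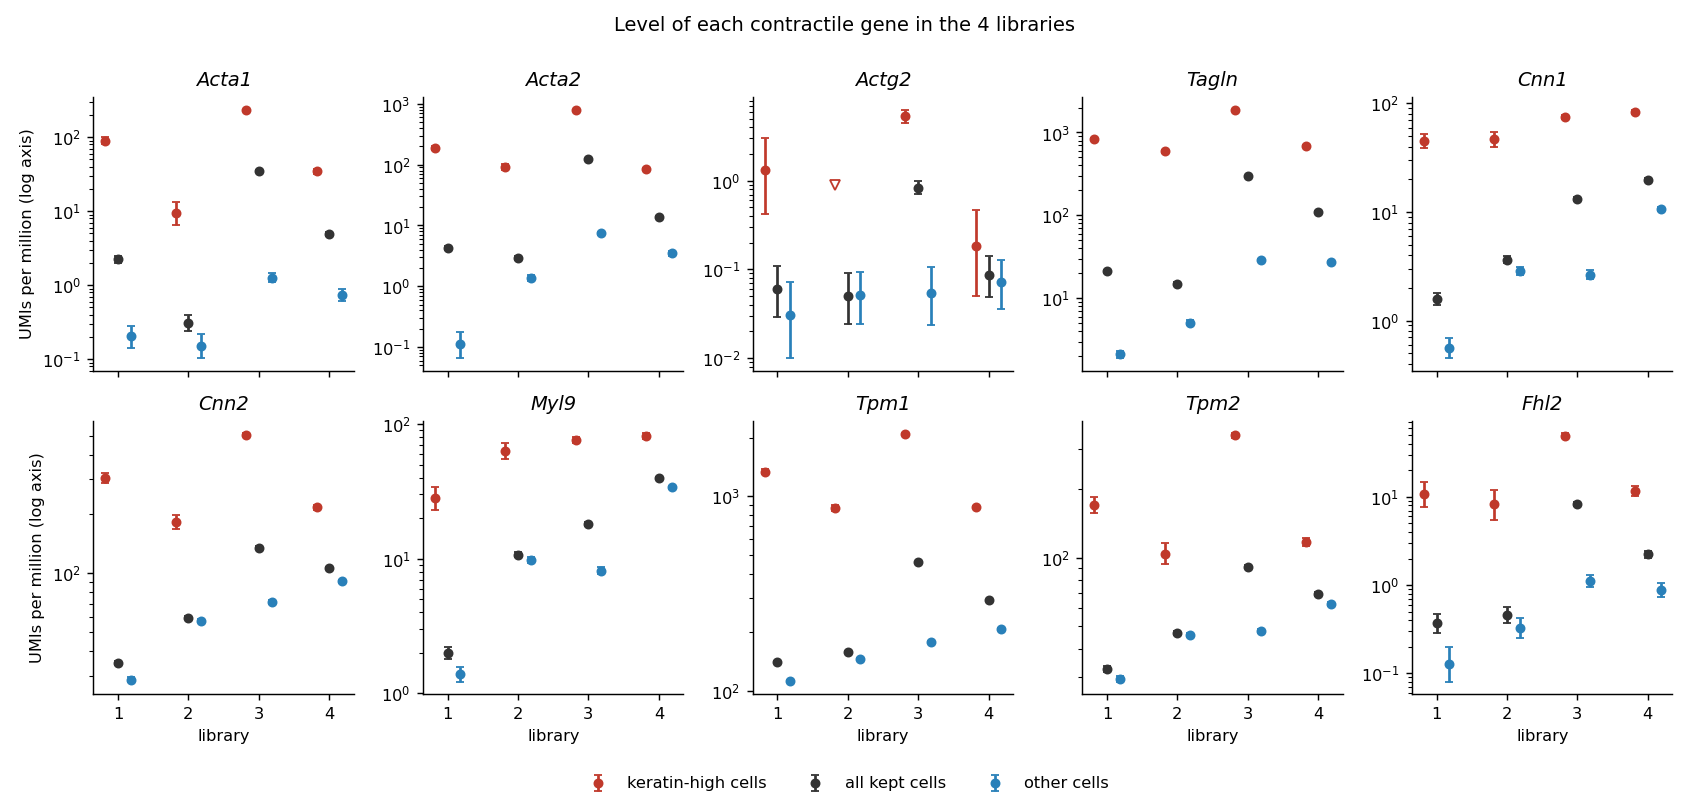
Level of each gene (UMIs per 1000000, log axis) in libraries 1 to 4, over all kept cells (black), keratin-high cells (red) and the other cells (blue), with exact Poisson 95% intervals; the open triangle is the limit of 3 counts that a count of 0 allows. For 9 of the 10 genes the red point lies above the blue one in all 4 libraries; Actg2 had no UMI in the 111 keratin-high cells of library 2.

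Among the muscle actins, Acta2 (ENSMUSG00000035783, chromosome 19, 34241090 to 34255590, minus strand, GRCm38) was the most abundant. Its level was 4.32, 2.90, 123 and 13.7 CPM in libraries 1 to 4, a range of 42.4-fold (39.0 to 46.1). Acta1 (ENSMUSG00000031972, chromosome 8, 123891769 to 123894751, minus strand) was at 2.24, 0.31, 34.9 and 4.96 CPM, which is the widest range of the 10 genes, 113-fold (87.7 to 147) between libraries 3 and 2. Without library 2 the Acta1 range was 15.6-fold and without library 3 it was 16.0-fold, and that of Acta2 was 28.4-fold without library 2 and 4.72-fold without library 3. Acta1 shares stretches near its 3' end with annotated transcripts of Actb, so its counts are uncertain to that extent. Both actins thus had the same order of libraries, 3, 4, 1 and 2, with no overlap of intervals. The balance between them was not constant, since 1.93 Acta2 UMIs (1.70 to 2.20) were counted per Acta1 UMI in library 1 and 9.37 (7.20 to 12.4) in library 2. Library 3 had 3.52 and library 4 had 2.76. In libraries 1 and 2 these orders and ratios rest on few cells. In each of the 2 libraries, 3 cells held 50% or more of the Acta2 UMIs and 8 cells those of Acta1. The intervals take UMIs as independent of each other and do not cover this. Actg2 (ENSMUSG00000059430, chromosome 6, 83512905 to 83536265, minus strand) was barely detected, with 10, 10, 144 and 15 UMIs in libraries 1 to 4. It stayed under the minimum of 200, and its intervals in libraries 1, 2 and 4 overlapped.

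Tagln, the gene of transgelin and an early marker of smooth muscle, was second to Tpm1 in libraries 3 and 4 and behind Tpm1, Cnn2 and Tpm2 in libraries 1 and 2. Its level was 21.1, 15.02, 300 and 110 CPM, a range of 19.9-fold (19.2 to 20.7), again with library 3 highest and library 2 lowest, and 7.34-fold without library 3. Tagln (ENSMUSG00000032085, chromosome 9, 45929619 to 45936058, minus strand) lies opposite Pcsk7 and Gm48529 on the plus strand. Whether reads of the other strand were set aside is not given in the sources used here. The calponins differed from each other. Cnn1 (ENSMUSG00000001349, chromosome 9, 22099216 to 22109630, plus strand), the smooth muscle form, was at 1.58, 3.62, 13.2 and 19.8 CPM, with library 4 and not library 3 highest, and its range of 12.5-fold was 5.46-fold without library 1 and 8.34-fold without library 4. Cnn2 (ENSMUSG00000004665, chromosome 10, 79988584 to 79996062, plus strand), the form also found in non-muscle cells, was at 35.0, 59.4, 135 and 106 CPM, a range of 3.85-fold (3.74 to 3.97), which was 2.27-fold without library 1.

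Myl9 (ENSMUSG00000067818, chromosome 2, 156775420 to 156781658, plus strand) was at 2.00, 10.7, 18.1 and 39.7 CPM. Library 4 was 19.9-fold (17.8 to 22.3) above library 1, a range that was 3.72-fold without library 1 and 9.08-fold without library 4, and the order 1, 2, 3, 4 was that of Cnn1. Tpm1 (ENSMUSG00000032366, chromosome 9, 67022590 to 67049406, minus strand) was the most abundant gene of the 10 in each library, at 140, 158, 459 and 291 CPM. Tpm2 (ENSMUSG00000028464, chromosome 4, 43514711 to 43523765, minus strand) was at 32.6, 46.6, 91.0 and 69.4 CPM. The tropomyosins had the smallest ranges, 3.27-fold (3.22 to 3.32) and 2.80-fold (2.71 to 2.88), and for both, library 3 was highest and library 1 lowest. Without library 3 the range of Tpm1 was 2.08-fold, and without library 1 that of Tpm2 was 1.95-fold. Fhl2 (ENSMUSG00000008136, chromosome 1, 43123074 to 43196984, minus strand) was rare, at 0.37, 0.46, 8.23 and 2.23 CPM, and libraries 1 and 2 did not differ beyond counting error (0.28 to 0.48 and 0.37 to 0.57). Library 3 was 22.1-fold (17.2 to 29.0) above library 1, and without library 3 the range was 6.00-fold.

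The order of libraries thus differed between the 9 genes above the count minimum. Library 3 was highest for Acta1, Acta2, Tagln, Cnn2, Tpm1, Tpm2 and Fhl2, and library 4 for Cnn1 and Myl9. Library 1 was lowest for Cnn1, Cnn2, Myl9, Tpm1 and Tpm2, and library 2 for both actins and Tagln. For Fhl2, libraries 1 and 2 overlapped within counting error, so no lowest library is named.

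Keratin-high cells held 28.6%, 11.2%, 75.0% and 41.7% of the UMIs of the 10 genes in libraries 1 to 4, so that most lay in the other cells except in library 3. In keratin-high cells the summed 10 genes were at 3011, 1971, 6040.0 and 2206 CPM in libraries 1 to 4, against 175, 269, 347 and 438 CPM in the other cells. These are 17.2-fold (16.8 to 17.6), 7.34-fold (7.15 to 7.53), 17.4-fold (17.3 to 17.6) and 5.04-fold (4.98 to 5.10) differences. By gene, 8 of the 10 were at least 2-fold higher in keratin-high cells of each library, where 6.81% of the 12703 genes with at least 50 UMIs in keratin-high cells were. As keratin-high cells were deeper, the rule was also set per 10000 UMIs of the cell (at least 2.5), and 9 of the 10 then passed. The share over all genes under that rule was not computed. Under the rule of 5 UMIs, 5 of the 10 (Acta1, Acta2, Tagln, Cnn1 and Fhl2) were at least 5-fold higher in each library, beside 1.66% of the 12703 genes. The median fold of the 10 genes was 62.2, 11.3, 36.3 and 6.04 in libraries 1 to 4, against 1.11, 1.08, 1.08 and 1.04 over all genes that passed.

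Most UMIs of Acta1, Acta2 and Tagln lay in keratin-high cells, by the widest margin in libraries 1, 3 and 4, while in library 2 the intervals of both actins reached below 50%. Acta2 was at 185, 91.7, 794 and 85.7 CPM in keratin-high cells and at 0.11, 1.38, 7.40 and 3.46 CPM in the others. Keratin-high cells held 97.5% (96.1 to 98.5), 53.2% (49.03 to 57.3), 94.9% and 77.8% of its UMIs, while they held 2.28%, 1.68%, 14.7% and 12.4% of all UMIs. For Acta1 the shares were 91.2%, 51.6% (38.6 to 64.5), 96.9% and 87.0%. Tagln was at 836, 595, 1872 and 695 CPM in keratin-high cells and 2.12, 5.09, 29.0 and 27.2 CPM in the others, with shares of 90.2%, 66.7%, 91.7% and 78.4%. Library 2 had the lowest share for all 3 genes.

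**Figure D2:**
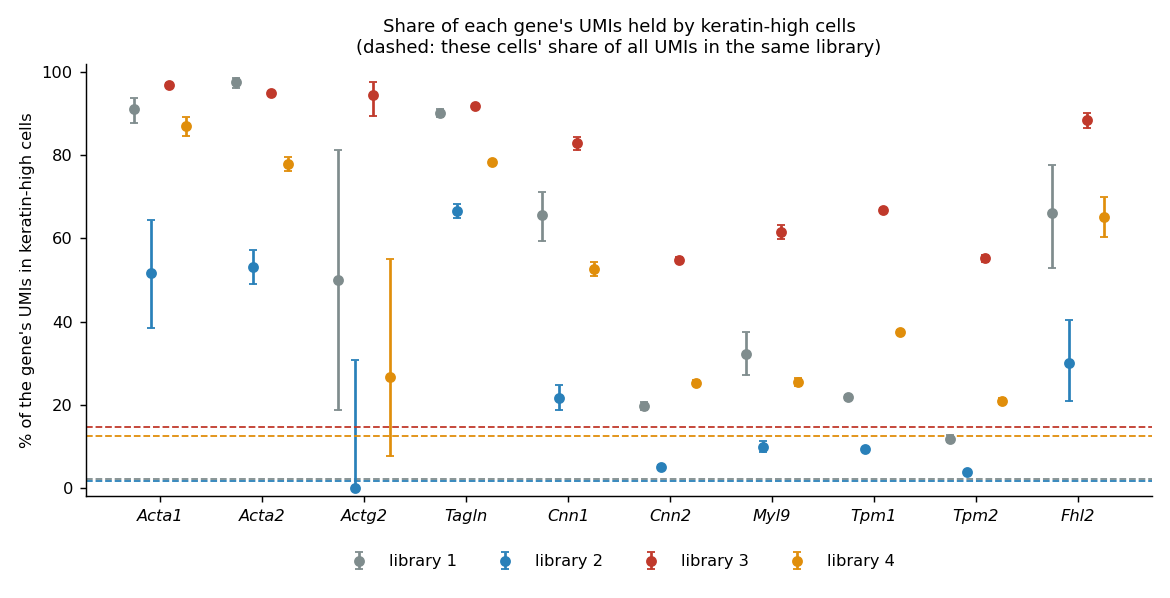
Share of each gene's UMIs (%) that lay in keratin-high cells, by library (colours), with exact binomial 95% intervals; dashed lines give the share of all UMIs in those cells, from 1.68% in library 2 to 14.7% in library 3. Of the 9 genes other than Actg2, Acta1, Acta2 and Tagln lie highest; Cnn2 and Tpm2 lie closest to the dashed lines.

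Fhl2 and Cnn1 took a middle place. Fhl2 was at 10.8, 8.31, 49.6 and 11.7 CPM in keratin-high cells and at 0.13, 0.33, 1.11 and 0.89 CPM in the others. Cnn1 was at 45.5, 46.6, 74.5 and 83.8 CPM in keratin-high cells, so that libraries 1 and 2 overlapped within counting error, and at 0.56, 2.89, 2.65 and 10.7 CPM in the others. Its fold between the cell classes went from 81.5 (62.9 to 106) in library 1 to 7.85 (7.34 to 8.40) in library 4. The 4 genes left, Actg2 aside, differed least. Tpm1 was 11.9-, 5.97-, 11.8- and 4.24-fold higher in keratin-high cells, Cnn2 10.6-, 3.16-, 7.08- and 2.38-fold, Myl9 20.3-, 6.46-, 9.32- and 2.40-fold, and Tpm2 5.79-, 2.28-, 7.17- and 1.86-fold. Tpm2 in library 4 (1.78 to 1.95) was the value that kept it out of the 8. Actg2 was kept out by library 2, where keratin-high cells had 0 UMIs, which allows up to 0.891 CPM (3 counts), and the other cells had 10 UMIs.

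With keratin-high cells set apart, the libraries still differed. The summed genes were then highest in library 4 and 2.503-fold (2.47 to 2.54) above library 1, and without library 1 their range was 1.63-fold. Of the 9 genes with at least 200 UMIs in the other cells, 8 still differed by at least 2-fold between libraries, against 25.2% of 14233 genes. Acta1, at 33, 30, 186 and 112 UMIs in these cells, did not reach that minimum without library 3. This left 7 of 8 genes, beside 21.6% of all genes that passed. Tpm1 was the exception at 1.85-fold (1.81 to 1.88), with 112, 146, 178 and 208 CPM in libraries 1 to 4. The median fold of these 9 genes was 8.66, against 1.49 over all genes that passed, and it was 4.03 without library 1. Acta2 now had the widest range, 67.1-fold (42.2 to 114) between libraries 3 and 1, from 18 UMIs in 8002 cells of library 1 and 1089 in 7041 cells of library 3, where 8 cells held 50% of them. Myl9 was 24.4-fold (21.4 to 28.0) and Cnn1 19.1-fold (15.5 to 23.9) higher in library 4 than in library 1. The other ranges were narrower than over all kept cells, at 13.7-fold for Tagln, 8.66-fold for Fhl2, 8.30-fold for Acta1, 3.15-fold for Cnn2 and 2.14-fold for Tpm2. Library 1 was lowest for 8 of the 9 genes, and without it the ranges of Acta2, Tagln, Myl9, Cnn1 and Fhl2 were 5.36-, 5.70-, 4.15-, 4.03- and 3.38-fold. Without library 1, 6 genes differed by at least 2-fold, beside 15.6% of all genes that passed. Cnn2 (1.58-fold) and Tpm2 (1.37-fold) then no longer did. Without library 3 the ranges of Acta2 and Acta1 were 31.4- and 4.82-fold, and without library 4 those of Myl9, Cnn1 and Tpm2 were 7.06-, 5.17- and 1.63-fold.

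The genes followed the amount of keratin in a cell differently. In cells with no keratin UMI Tagln was at 0.94, 2.17, 16.8 and 13.7 CPM in libraries 1 to 4, and its level was higher at every step of keratin UMIs in each library, up to 1412, 1929.5, 2537 and 2263 CPM in cells with 50 or more. Tpm1 did the same, from 104, 139, 135 and 174 CPM to 2063, 2725, 2601 and 2174 CPM. In the highest class the libraries thus lay within a range of less than 2-fold for both genes. Neighbouring intervals of Tagln overlapped at the last 2 steps of library 1 and at 10 to 19 and 20 to 49 UMIs of library 2. Myl9 did not climb throughout. In the 4 keratin-high steps it was at 10.2, 43.5, 28.7 and 37.1 CPM in library 1, at 43.8, 157, 90.04 and 83.4 in library 2, at 51.0, 76.8, 84.6 and 81.1 in library 3 and at 79.2, 81.8, 97.9 and 72.5 in library 4. The intervals of the last 3 steps overlapped in libraries 1 to 3, and in library 4 those at 10 to 19 and 20 to 49 UMIs did, so no highest step can be named.

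Acta2 did not run in step with keratin outside library 3. In library 3 it was at 312, 468, 875 and 1009 CPM in the 4 keratin-high steps. In library 1 it was at 0.78, 315, 569 and 117 CPM, in library 2 at 5.58, 341, 12.2 and 569 CPM, and in library 4 at 12.02, 50.9, 353 and 188 CPM. The steps of libraries 1 and 2 held 9 to 75 cells each. At the edge of the keratin rule, cells with 4 keratin UMIs had 604, 486, 1286 and 672 CPM of the summed genes in libraries 1 to 4, and cells with 5 had 832, 626, 1351 and 871 CPM.

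**Figure D3:**
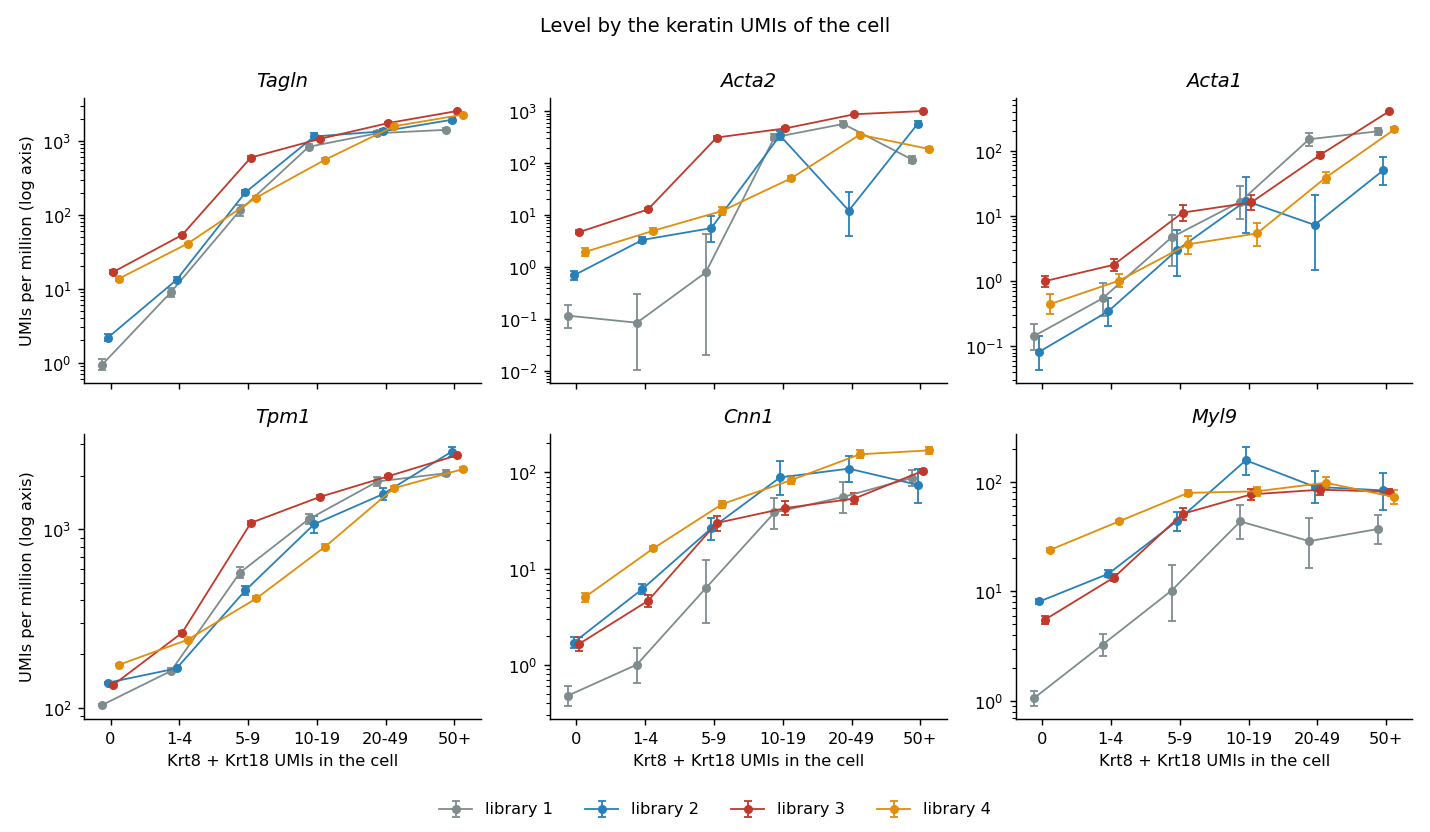
Level (UMIs per 1000000, log axis) of 6 genes by the number of Krt8 and Krt18 UMIs in the cell, for libraries 1 to 4 (colours), with exact Poisson 95% intervals. Tagln and Tpm1 climb at every step, with some Tagln intervals overlapping in libraries 1 and 2, and Myl9 does not climb throughout. Acta2 zigzags in libraries 1 and 2, and it drops from 341 to 12.2 CPM between the middle steps of library 2.

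Few cells made up the actin levels. In library 1, 33 of 8118 cells held any Acta2 UMI, 3 of them held 50% or more of its 721 UMIs, and 1 cell had 174. Library 2 was alike, with 3 cells holding 50% of 581 UMIs. There 1 cell outside the keratin-high class had 142, which is 52.2% of the Acta2 UMIs outside that class. Library 3 had 807 cells with Acta2, and 49 of them held 50% of 21195 UMIs. Acta1 had a like spread, with 50% of its UMIs in 8, 8, 43 and 9 cells of libraries 1 to 4. Tagln was held more widely, 50% of it by 18, 17, 147 and 101 cells. At the other end, 50% of the Tpm1 UMIs took 991, 1617, 385 and 900 cells, so that its smallest number was in library 3.

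Detection was compared after each cell was thinned to 5000 UMIs, which every kept cell reached. Tpm1 was then detected in 93.1%, 74.8%, 97.9% and 87.9% of keratin-high cells and in 39.7%, 48.3%, 46.4% and 57.1% of the others (unthinned 81.0% to 91.1%). Tagln was detected in 68.1%, 50.5%, 82.7% and 59.3% of keratin-high cells and in 0.512%, 1.56%, 6.15% and 8.19% of the others (unthinned 2.10% to 20.6%). Acta2 was detected in 7.76%, 6.31%, 34.7% and 10.0% of keratin-high cells, so most of these cells had no Acta2 UMI at this depth, and in 0.025% to 1.73% of the others. Cnn1 was detected in 22.4%, 22.5%, 24.8% and 29.0% of keratin-high cells, shares whose intervals overlapped between neighbours. No cell class known to lack these genes was at hand, so the part of RNA free in the droplets in the shares of the other cells was not tested. The counted ratio of the 2 actins differed between the cell classes in libraries 1, 3 and 4. In library 1, 2.07 Acta2 UMIs (1.81 to 2.36) were counted per Acta1 UMI in keratin-high cells and 0.55 (0.29 to 1.00) in the others, in library 3 these were 3.45 and 5.85, and in library 4 they were 2.47 and 4.71. In library 2 the values, 9.66 and 9.07, overlapped within their intervals, but 1 cell held 52.2% of the Acta2 UMIs of the other cells there. Of the Acta2 UMIs of the other cells, 8 cells held 50% in library 3, and 1 cell held 19.5% in library 4. The intervals do not cover this, and how far such cells set the direction of the ratios was not tested.

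Read from the muscle side, cells rich in Tagln were mostly keratin-high. Of the 89, 93, 876 and 630 cells with at least 5 Tagln UMIs, 85.4% (76.3 to 91.99), 61.3% (50.6 to 71.2), 79.7% (76.9 to 82.3) and 64.0% (60.1 to 67.7) were keratin-high. Cells with as many Tagln UMIs but no keratin UMI numbered 3, 7, 43 and 34. For Acta1 the overlap was closer, with 21 of 21, 1 of 1, 215 of 216 and 29 of 31 such cells keratin-high. For Acta2 these were 9 of 9, 4 of 9, 280 of 296 and 43 of 58. In library 2, 4 of the 9 cells rich in Acta2 had no keratin UMI. Cells rich in Tpm1 were mostly not keratin-high, since of 1014, 2329, 2285 and 3172 cells with at least 5 UMIs, 10.9%, 3.95%, 36.7% and 19.99% were. These shares still lay above those of keratin-high cells among all kept cells, 1.43%, 1.30%, 10.8% and 9.49%. Of keratin-high cells, 95.7%, 82.9%, 98.4% and 89.5% had at least 5 Tpm1 UMIs.

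The genes tended to occur in the same cells. Of the 45 pairs of the 10 genes, 24 were found together in more thinned cells than the product of their shares gives, with the lower bound of the exact binomial 95% interval above that product in each of the 4 libraries. These lay among the 36 pairs of the 9 genes with at least 200 UMIs, and over all 105480550 pairs of the 14525 genes with that minimum the share was 0.0247%. No pair had an upper bound below the product in any library. Tagln and Cnn1 were both detected in 28, 33, 234 and 248 cells, where the product gave 0.783, 3.07, 42.4 and 68.7. Acta2 and Tagln were both detected in 9, 10, 317 and 99 cells, where the product gave 0.163, 0.593, 60.3 and 18.3. Pairs of abundant genes exceeded the product by less. Tpm1 and Tpm2 were both detected in 482, 856, 1268 and 1344 cells, where the product gave 440, 800, 999 and 1269. None of the 9 pairs with Actg2 was among the 24.

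Correlations over cells, of log(1 + UMIs per 10000) within a library, describe the same pattern. They are over 7464 to 8514 cells that share a library, and sparse genes give low values. The median over the 45 pairs was 0.28, 0.15, 0.52 and 0.28 in libraries 1 to 4. The highest pair was Acta2 with Fhl2 in library 1 (r = 0.68), Tagln with Cnn1 in library 2 (0.44), and Tagln with Tpm1 in libraries 3 and 4 (0.81 and 0.66). Tagln with Cnn1 was the pair whose lowest value over the libraries was highest. Each gene was also set against the sum of the other 9. Tagln had r of 0.49, 0.41, 0.83 and 0.66, the highest of the 10 genes in each library, and Actg2 had 0.10, 0.09, 0.23 and 0.09, the lowest.

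Without the keratin-high cells much of this was gone. The pairs above the product in each library went from 24 to 8, beside 0.0112% of all pairs of genes with at least 200 UMIs in these cells, and the median correlation went to 0.01, 0.09, 0.16 and 0.16. The 8 pairs were Tagln with Cnn1, Cnn2 and Myl9, Myl9 with Cnn1, Cnn2, Tpm1 and Tpm2, and Cnn2 with Tpm1. Myl9 thus took part in 5 of the 8, and no actin in any. For the actins this count decides little, as a pair had to pass in each library and their detection was rare. After thinning, Acta2 was detected in 2 of these cells in library 1, and Acta1 and Actg2 in 2 and 1 in library 2. Against the sum of the other genes of the list, Acta2 had r of 0.02, 0.15, 0.19 and 0.24 in these cells. Acta1 had 0.04, 0.05, 0.11 and 0.13, and Actg2 had -0.02, 0.10, 0.07 and 0.08. Tagln and Myl9 were both detected in 3, 29, 47 and 182 of these cells, where the product gave 0.225, 4.72, 13.0 and 66.7. The highest correlation of a pair in library 2 was then Acta2 with Actg2 (r = 0.54), which rests on 10 Actg2 UMIs in 8 cells. Within keratin-high cells alone, 4, 2, 20 and 14 of the 45 pairs were above the product in libraries 1 to 4 and 0 in all 4, over 111 to 852 cells. Over all pairs of the 12703 genes with at least 50 UMIs in these cells, the shares were 0.234%, 0.229%, 0.905% and 0.639%. The median correlation within them was 0.49, 0.40, 0.40 and 0.34, above that over all kept cells in libraries 1, 2 and 4.

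**Figure D4:**
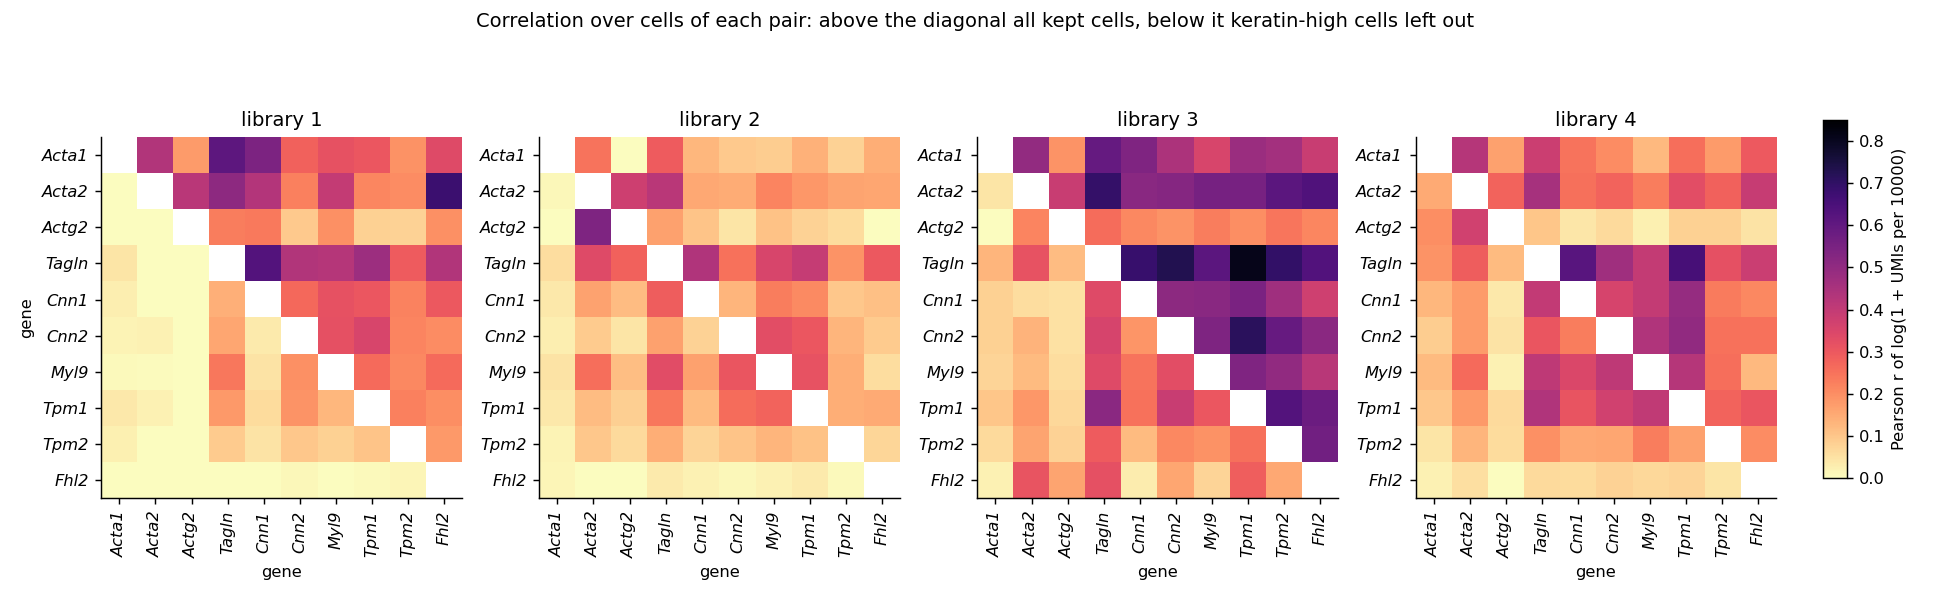
Pearson correlation over cells for each pair of genes in libraries 1 to 4 (colour, 0 to 0.85, values below 0 shown as 0), with all kept cells above the diagonal and the keratin-high cells left out below it. Library 3 is darkest above the diagonal, led by Tagln with Tpm1 at 0.81, while in library 2 the darkest field, Acta2 with Actg2 at 0.54, lies below the diagonal.

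Counting genes per cell gave the same split. A median of 3, 3, 5 and 3 of the 10 genes was detected in thinned keratin-high cells of libraries 1 to 4, and 1 in the other cells of each library. At least 5 genes were detected in 18.97% (12.3 to 27.3), 18.02% (11.4 to 26.4), 52.1% (48.7 to 55.5) and 24.2% (21.04 to 27.5) of keratin-high cells. In the other cells these shares were 0.025%, 0.167%, 0.653% and 1.75%. Cells with 7 or more of the 10 genes numbered 160 of 852 keratin-high cells in library 3, and 8, 2 and 21 in libraries 1, 2 and 4.

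The 10 other genes whose levels ran most like the summed 10, by the lowest correlation over the 4 libraries among 10759 genes, were Ccn1, Krt8, Pdlim7, Zyx, Nes, Krt18, Myl12a, Cald1, Tpm4 and Abracl. Their lowest correlations lay between 0.31 and 0.26, and the median over all compared genes between 0.016 and 0.019 by library. Cald1, the gene of the actin and calmodulin binding protein caldesmon, had r of 0.46, 0.26, 0.85 and 0.59 in libraries 1 to 4. Zyx, the gene of the focal adhesion protein zyxin, had 0.39, 0.30, 0.75 and 0.49. Nes encodes the intermediate filament nestin and had 0.44, 0.30, 0.64 and 0.50. Ccn1, a secreted matrix protein gene, was at 3.33, 5.04, 27.7 and 21.3 CPM. Without the keratin-high cells, 3 of these 10 genes (Nes, Pdlim7 and Myl12a) remained among the 10 most alike, and by rank correlation of thinned cells 4 did (Krt8, Pdlim7, Zyx and Nes).

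Other muscle and cytoskeletal genes were compared in the same way, as counts and summed levels with no test. A gene was counted where it had at least 50 UMIs in keratin-high cells and was at least 2-fold higher in each library, which 6.81% of all genes with that minimum were. Of SRF and its 3 cofactors, 0 of 4 (3 with the minimum) were at least 2-fold higher in keratin-high cells of each library, and their sum was 1.38- to 1.84-fold that of the other cells. Srf was at 6.78, 17.03, 11.2 and 19.4 CPM in libraries 1 to 4, Mrtfa at 3.87, 5.81, 4.63 and 6.89, and Mrtfb at 5.06, 6.58, 5.93 and 6.85. Myocd, the muscle cofactor, had 1, 1, 12 and 21 UMIs. Of 8 late smooth muscle markers, 6 with the minimum, 3 were at least 2-fold higher in keratin-high cells of each library (Lmod1, Cald1 and Vcl). Cald1 and Vcl are also on the list of cytoplasmic actin and myosin genes below. Counts are per gene, so isoforms of these genes were not told apart. The sum of the 8 was 4.32- to 15.6-fold that of the other cells, and Cald1 made up most of it in keratin-high cells. Cald1 was at 747, 340, 1339.6 and 372 CPM in keratin-high cells and 16.7, 17.7, 58.0 and 43.0 CPM in the others. Without Cald1 the sum was 3.76-, 2.06-, 3.92- and 1.94-fold that of the other cells in libraries 1 to 4. Vcl, the gene of vinculin, was at 118, 95.0, 159 and 112 CPM in keratin-high cells and 24.8, 43.6, 35.7 and 54.8 in the others. Lmod1, a leiomodin that nucleates actin, was at 6.05, 2.08, 15.6 and 3.47 CPM in keratin-high cells.

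Several of the late markers were close to the detection limit. Myh11, the smooth muscle myosin heavy chain, had 10, 12, 14 and 19 UMIs in all kept cells of libraries 1 to 4. Mylk, the myosin light chain kinase, had 22, 42, 19 and 41, and Synpo2 16, 95, 47 and 144. Des, the muscle intermediate filament desmin, was at 7.67 to 10.0 CPM and Smtn, the gene of smoothelin, at 8.18 to 13.5 CPM. Keratin-high cells held 1, 0, 10 and 9 of the Myh11 UMIs, and the 0 in library 2 allows up to 0.891 CPM (3 counts). The cells are named here by the keratin rule, and no muscle cell type is given to them.

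Of 17 cytoplasmic actin and myosin genes, which include Vcl and Cald1 again and all passed the minimum, 6 (Actg1, Tpm4, Tagln2, Zyx, Vcl and Cald1) were at least 2-fold higher in keratin-high cells of each library, and the sum was 1.76- to 2.84-fold that of the other cells. Actb, the most abundant of them, was at 4329.8, 3659, 5176 and 4038 CPM in keratin-high cells and 2467, 2954, 2495 and 3006 in the others. Of 15 striated muscle genes, 10 with the minimum, 3 were (Actc1, Tnnt2 and Tnnc1), Tnnt2 with 1 UMI in keratin-high cells of library 2, and the sum of this list was 0.764-, 0.557-, 0.863- and 1.16-fold that of the other cells. Actc1, the cardiac actin, was at 8.15, 1.78, 9.60 and 12.01 CPM in keratin-high cells. Ttn, the titin gene and the most abundant of the list, was at 8.42, 7.72, 5.29 and 9.56 CPM in keratin-high cells and 32.6, 26.3, 29.3 and 16.8 in the others.

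**Figure D5:**
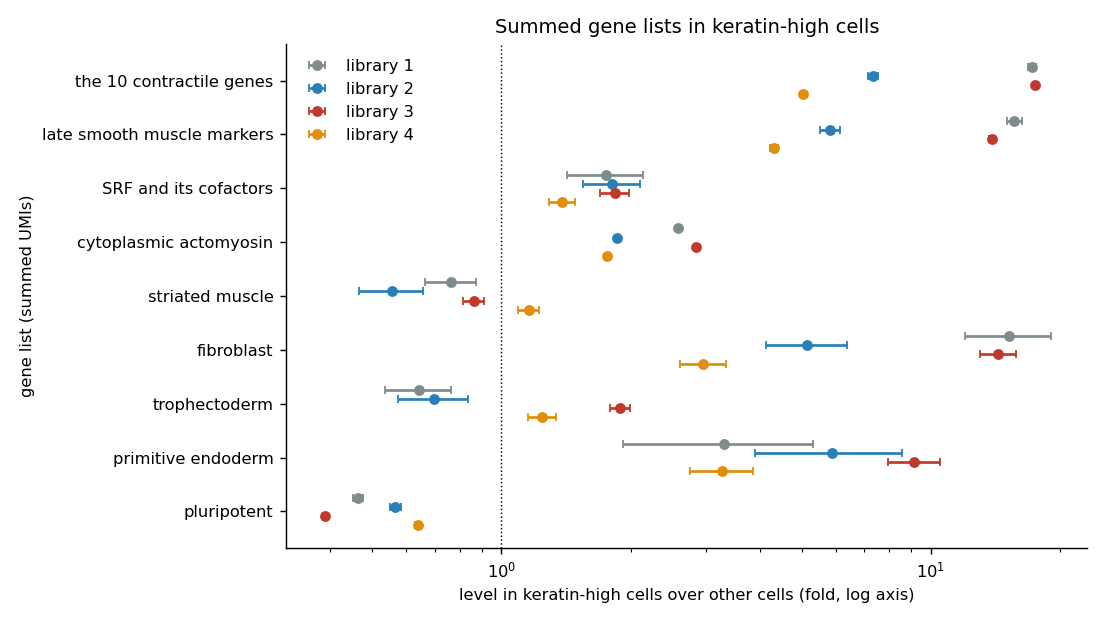
Summed level of each gene list in keratin-high cells over that in the other cells (fold, log axis) for libraries 1 to 4 (colours), with exact 95% intervals for counting error; the dotted line marks equal levels. The 10 contractile genes lie at 5.04 to 17.4 and the pluripotency genes at 0.389 to 0.639. The late smooth muscle markers lie at 4.32 to 15.6, and without Cald1, not drawn, at 1.94 to 3.92.

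Markers of other cell types were set against the keratin rule too. Pluripotency genes were lower in keratin-high cells of each library, with 0 of 7 at least 2-fold higher and a summed level of 1325, 1420.1, 943 and 1373 CPM against 2848, 2503, 2424 and 2148 in the others. Pou5f1, the most abundant of them, was at 669.6, 753, 399 and 713 CPM in keratin-high cells and at 851, 795, 709 and 782 CPM in the others. It differed least of the 7. Zfp42 was at 75.2, 115, 88.3 and 103 CPM in keratin-high cells and 527, 542, 463 and 396 in the others. Nanog was at 31.8, 34.1, 27.1 and 25.3 CPM against 157, 132, 116 and 67.0. Fibroblast markers were at 27.4, 27.6, 57.2 and 17.4 CPM in keratin-high cells and 1.80 to 5.88 CPM in the others. Of these 8 markers, 4 with the minimum, 3 were at least 2-fold higher in each library (Col1a1, Col1a2 and Col3a1, the last with 1 UMI in either cell class of library 2), Thy1 was the most abundant over all kept cells of the 4 libraries together, and Lum had at most 2 UMIs in any library. Of 8 trophectoderm markers, 6 with the minimum, 3 were (Gata3, Krt7 and Hand1, the last with 1 UMI in keratin-high cells of library 1), and Elf5 had 1 to 9 UMIs a library. The trophectoderm sum was 34.2 to 74.0 CPM in keratin-high cells and 30.4 to 53.2 CPM in the others, most of it Tfap2c in the others. By library it was 0.643-, 0.697-, 1.89- and 1.24-fold that of the other cells, lower in libraries 1 and 2 and higher in libraries 3 and 4. Of 7 primitive endoderm markers, 3 with the minimum, only Dab2 was at least 2-fold higher in each library, and their sum was 4.73 to 20.9 CPM in keratin-high cells and 1.44 to 2.98 in the others. Of 6 genes of simple epithelia 4 were, namely Krt8 and Krt18, which the rule used, Krt19 and Krt7, which is on both lists, and Epcam was the most abundant over all kept cells together. All 6 passed the minimum, and the sum of the 4 genes that the rule did not use was 1.60- to 2.85-fold that of the other cells. Of 9 cardiac and skeletal markers, 6 with the minimum, 2 were (Actc1 and Tnnt2), Myl7 was the most abundant over all kept cells together, and the sum was 15.1 to 29.6 CPM in keratin-high cells and 11.999 to 24.4 in the others. A list of 8 smooth muscle markers that holds Myocd in place of Vcl had 2 (Lmod1 and Cald1) of 5 with the minimum, and its sum was 6.19- to 23.8-fold that of the other cells, most of it Cald1. Without Cald1 the sum was 2.27-, 1.78-, 2.86- and 1.72-fold that of the other cells. The part of other cell types in the levels of the 10 genes was not tested.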

How the data were processed

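Single mESCs were sequenced and, per the labels, processed with Cell Ranger 6.1.2 on mm10. The deposited matrix holds raw UMI counts per gene and barcode, pooled by the authors over 4 libraries with the default aggregation, which subsamples reads to even depth between libraries and so lowers counts in the deeper ones. Barcodes were kept where UMIs and genes reached the library mean minus 1 SD and mitochondrial UMIs were at most 10%, after the methods of the study. No doublet caller was run, and cells above 2 times the library median UMI count were 11.7% to 37.1% of keratin-high and 3.32% to 5.07% of other cells.

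The genes and lists were chosen with earlier results of these data known. Counts were summed per library and scaled to 1000000 UMIs, with exact Poisson, Clopper-Pearson or conditional binomial 95% intervals for counting error only. Cells were thinned to 5000 UMIs in 1 seeded draw. The planned edgeR comparison was not made, as libraries cannot be tied to samples. Besides the 10 genes, those named are the 10 most correlated genes with at least 0.05 UMIs per cell, every SRF cofactor and late smooth muscle gene, the most abundant and up to 3 more of each list, Krt8, Krt18 and Srrm2. Genes that complete a count of 6 or fewer were named after their values were seen. Positions are from GENCODE vM21. Of 31 pairs of actin, tropomyosin and calponin genes, 1 (Acta1 with Actb) shared a run of 60 bases within the last 400 of a transcript, and how shared reads were assigned is not given in the sources used here. Python 3.11.15, numpy 2.4.6, scipy 1.17.1 and pandas 2.3.3 were used, and the scripts were tested on simulated data.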

Additional observations from a re-analysis of the deposited data

Results flagged for a closer look

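The barcodes that the cell filter removed, 1417, 3222, 1804 and 2710 in libraries 1 to 4, still held UMIs of the 10 genes, above the limit that a count of 0 allows. Their summed level was 294, 194, 676 and 345 CPM, with intervals of 280 to 310, 186 to 202, 656 to 696 and 332 to 358. Library 3 was highest here too. These barcodes were shallow, with medians of 2428.5 to 3216 UMIs, and 0.062% to 1.94% of them passed the keratin rule.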

How the results depend on the processing

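No paired analysis was possible because no library can be tied to a labelled replicate, and the planned edgeR fit, its replicate block and DESeq2 were not run. The counts of genes that differed at least 2-fold between libraries (9) and of genes at least 2-fold higher in keratin-high cells of each library (8) stayed at 8 to 10 and 7 to 9 under all alternatives, including leaving out each library. Leaving out a library could not lower the second of these counts. Beside the first count, 17.6% to 23.0% of all genes that passed did so as libraries were left out in turn. With keratin-high cells left out, 25.2% of all genes that passed did. Under the other alternatives, and for the second count under any, the share over all genes was not computed. The 8 genes that differed at least 2-fold with keratin-high cells set apart became 6 to 8 as libraries were left out in turn, 6 without library 1. Beside them, 15.6% to 21.6% of all genes that passed did so. The 2.503-fold range of the 10 summed genes with keratin-high cells set apart was 1.63 without library 1, 1.98 without library 4 and 2.503 otherwise. The 24 pairs detected together became 8 without the keratin-high cells and 24 to 34 as libraries were left out in turn, 34 without library 2, and 20 to 28 otherwise. The pair count and the keratin-high count ask for each library to pass, so leaving a library out could not lower them. It is therefore no check on these counts. The 4.94-fold range of the summed genes was 4.83 over all barcodes, 4.72 without cells above 2 times the median UMI count, 4.68 as a mean over cells, 4.53 with median-of-ratios size factors and 2.503 without keratin-high cells. It lay between 2.74 (without library 3) and 4.94 as libraries were left out in turn. Of 150 lowest keratin-high folds over the libraries recomputed, that of Actg2 alone changed direction, from 0 to 2.56 without library 2. Of these 150 folds, 52 moved outside the interval for counting error, and leaving a library out could not lower them. The 140 highest-over-lowest folds recomputed are at least 1 by definition and could not change direction. Of these 140 folds, 45 moved outside the interval for counting error. Leaving out cells with a shared barcode, the cell with most UMIs or the count minimum, or a library with the keratin-high cells set apart, was chosen after seeing the data. Depth limits Actg2, Fhl2 and the actins outside the keratin-high cells, where few UMIs were counted.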
